A study of Mus musculus with 6 samples.

Results

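Chemokine receptors are the G protein-coupled receptors through which T cells read chemokine gradients and are steered into lymphoid follicles, inflamed tissue, skin, gut or bone marrow. The 7 genes described here, Cxcr3, Cxcr4, Cxcr5, Cxcr6, Ccr2, Ccr4 and Ccr9, were found by symbol among the 55487 genes that each table lists, and each matched a single gene. Their mRNA was read by RNA-seq in cytotoxic (CD8+) T cells of C57BL/6 mice, which destroy virus-infected and malignant cells. The cells were kept for 48 h either with itaconate at 5 mM, a dicarboxylic acid that activated macrophages make, or with NaCl as the control, and each group held 3 libraries. The labels name no other agent, no activating stimulus and no origin of the replicates, so the spread behind every p-value is that of these 6 libraries and could be technical. Values per library are given in the order of replicates 1, 2 and 3. Library totals lay between 18280217 and 31643408 expected counts, and all 8 CD8 T cell markers reached 1 TPM, the authors' unit of expression scaled for transcript length and library total. The libraries came from bulk RNA, in which fewer cells carrying a receptor and less receptor mRNA per cell cannot be told apart.

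Each receptor is known for its ligands and for the cells it guides. CXCR3 binds the interferon-induced chemokines CXCL9, CXCL10 and CXCL11 and marks effector T cells, while CXCR6 binds CXCL16 and is a feature of tissue-resident and liver T cells. CXCR4 binds CXCL12, retains cells in bone marrow and is a known target gene of hypoxia-inducible factor 1 (HIF-1). CXCR5 binds CXCL13 and brings B cells and follicular T cells into follicles. CCR2 binds CCL2 and is best known from inflammatory monocytes, CCR4 binds CCL17 and CCL22, and CCR9 binds CCL25 and guides cells to the small intestine and thymus.

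Itaconate moved 2 of the 7 genes, in opposite directions. Cxcr4 mRNA fell to less than its control level in every treated library, by 2.18-fold, and Cxcr5 mRNA rose by 1.82-fold. Cxcr3 and Ccr4, which had the highest levels of the 7, differed by less than the spread between libraries, and so did Cxcr6 and Ccr2. Ccr9 had too few counts to pass the filter set before the test. Of the 6 genes tested, 1 rose and 1 fell in edgeR's quasi-likelihood test at an adjusted p under 0.05, and among all 12350 genes tested the shares were 6.68% higher and 5.36% lower, 12.0% in either direction. In CPM, counts scaled to the same normalised library size, the groups of Cxcr4 and Cxcr5 did not overlap, which held for 31.2% of all tested genes. The median log2 fold change of the 6 genes was 0.09, and over all tested genes it was 0.0059.

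**Figure D1:**
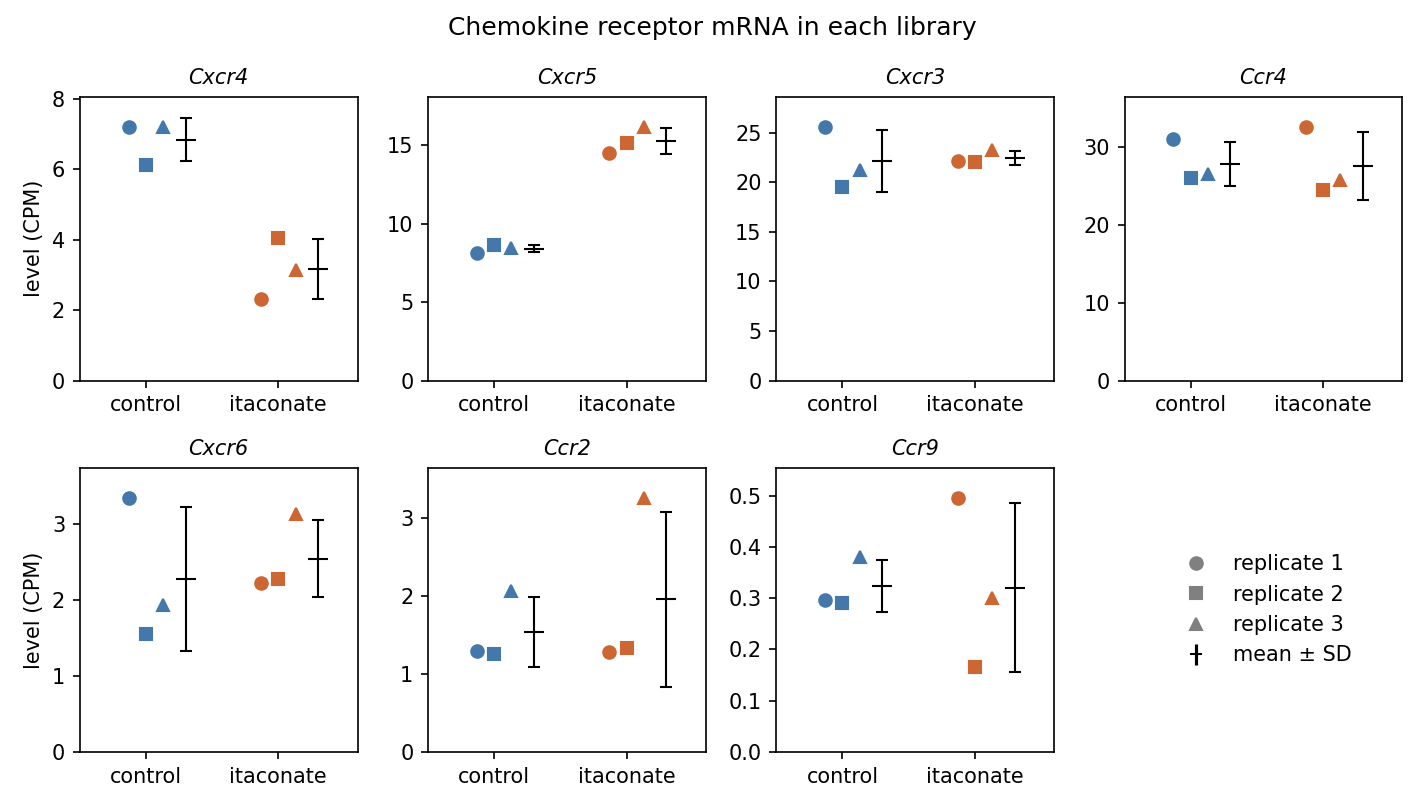
Level of each of the 7 receptor genes in CPM (vertical axis from 0) in the 3 control and 3 itaconate libraries, with the mean and SD of each group beside the points. The groups are apart for Cxcr4 and Cxcr5 and overlap for the other 5 genes.

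The promoter of Cxcr4 is shown because Cxcr4 was the gene of the 7 that fell. It is the stretch of 250 bases before the RefSeq transcription start on chr1:128592300-128592549 (GRCm38.p6, minus strand), and its capitals mark GCGTG, one form of the core that HIF-1 binds, and the letters TATAAA of the TATA box, which match there on both strands and so give 1 merged run.
Cxcr4: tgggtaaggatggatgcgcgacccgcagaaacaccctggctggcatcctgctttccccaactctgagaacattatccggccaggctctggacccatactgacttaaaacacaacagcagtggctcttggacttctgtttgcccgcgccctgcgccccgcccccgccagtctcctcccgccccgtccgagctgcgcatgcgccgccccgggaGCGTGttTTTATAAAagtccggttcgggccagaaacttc
GCGTG lies 39 to 35 bases before the start. Searching both strands, ACGTG or GCGTG was found in 38.6% of 32851 RefSeq promoter windows of the same length and TATAAA in 12.4%. RefSeq windows were at hand for 6 of the 7 genes, and of the others only that of Cxcr3 held GCGTG and none held ACGTG or TATAAA. A match is a description of letters, and no binding was measured.

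Cxcr4 (ENSMUSG00000045382) is a protein-coding gene on the minus strand of chromosome 1, from 128588199 to 128592293 in GRCm38. Its level, normalised to library size, was 7.2, 6.14 and 7.21 CPM in the control libraries and 2.33, 4.05 and 3.13 CPM in the treated libraries. All 3 treated libraries lay below all 3 controls, with the lowest level in itaconate replicate 1. The means were 6.85 ± 0.62 CPM without and 3.17 ± 0.86 CPM with itaconate (SD, n = 3), a log2 fold change of -1.12 ± 0.19 (SE; 95% interval -1.53 to -0.71) with an edgeR adjusted p of 0.00188. These levels rest on 127 to 227 expected counts per control library and 47 to 73 per itaconate library. The fall kept its call when any 1 library was left out, with log2 fold changes from -1.32 to -0.94. No stretch of 50 bases in the Cxcr4 transcripts occurs in a transcript of another gene.

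Cxcr5 (ENSMUSG00000047880), also protein-coding, lies on the minus strand of chromosome 9, from 44511787 to 44561877. It was at 8.17, 8.65 and 8.45 CPM in the control libraries and at 14.5, 15.1 and 16.2 CPM in the treated libraries. The control libraries were nearly equal, and every treated library was well above them. The means of 8.42 ± 0.24 and 15.3 ± 0.84 CPM (SD, n = 3) gave a log2 fold change of 0.86 ± 0.10 (95% interval 0.64 to 1.08, edgeR adjusted p 0.000144). Without any 1 library the log2 fold change ran from 0.82 to 0.90, with adjusted p-values of at most 0.00179. In TPM, which divides by transcript length, Cxcr5 was at 5.28, 5.51 and 7.74 in the control and 10.4, 11.3 and 11.2 in the itaconate libraries. The groups stay apart on this scale too, but control replicate 3 stands above the other controls. There the authors' mean transcript length of Cxcr5 was 1555 bases, against 2217 and 2225 bases in control replicates 1 and 2. Cxcr5 has 5 transcripts of 358 to 2846 bases in GENCODE M21. With the effective length as an offset the rise was 0.89 ± 0.17 (adjusted p 0.021). Cxcr5 shares 110 of its 3332 exonic bases with Bcl9l on the other strand, where strand settings not given in the sources used here decide which gene a read goes to. Bcl9l averaged 33.5 ± 3.3 CPM without and 43.1 ± 8.1 CPM with itaconate (adjusted p 0.133), and its part in the Cxcr5 result was not tested.

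B cells carry CXCR5, so the B cell markers belong beside this result. None of the 8 tested B cell markers passed edgeR's test, and 6 of the 8 reached 1 TPM in some library. Their summed level was 251 to 276 TPM in control and 249 to 289 TPM in itaconate libraries, nearly all of it Ighm, at 247 ± 14 and 254 ± 22 TPM. At an unadjusted p under 0.05 there were 2, both with groups that did not overlap in CPM. Cd79b, part of the B cell receptor, averaged 6.41 ± 0.38 CPM without and 7.95 ± 1.1 CPM with itaconate (0.31 ± 0.14, edgeR adjusted p 0.167), and Ighm 269.7 ± 11 and 294 ± 15 CPM (0.12 ± 0.050, adjusted p 0.128). Ms4a1, which encodes the B cell surface protein CD20, was at 0.630 ± 0.20 and 0.550 ± 0.49 TPM, and the part of B cells in the Cxcr5 result was not tested. Bcl6, the transcription factor of follicular helper T cells, was at 1.05 ± 0.35 and 1.15 ± 0.19 CPM (log2 fold change 0.11 ± 0.35, adjusted p 0.883).

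**Figure D2:**
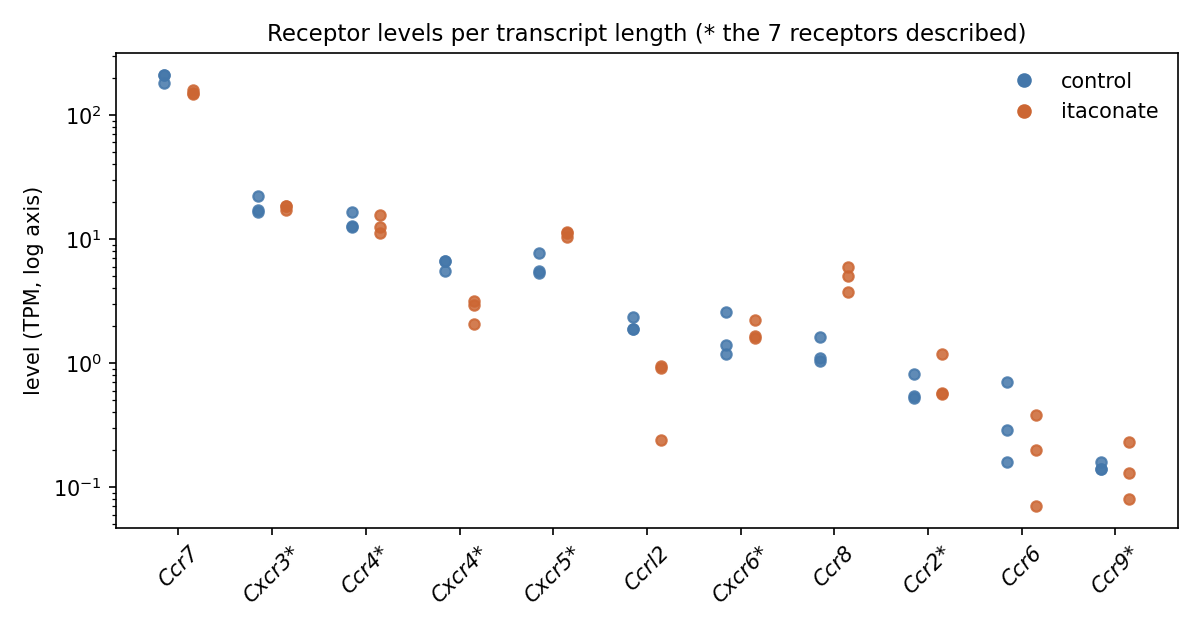
Level of the 7 receptor genes and of other chemokine receptor genes with values above 0 in all 6 libraries, in TPM on a log axis, with 1 point per library and stars on the 7 genes described. Ccr7 lies above all others, and Cxcr4 and Cxcr5 overlap in control and are apart in itaconate.

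TPM allows levels of different genes to be set side by side. In control cells the order was Cxcr3 (18.6 ± 3.0 TPM), Ccr4 (13.9 ± 2.2), Cxcr4 (6.27 ± 0.64), Cxcr5 (6.18 ± 1.4), Cxcr6 (1.72 ± 0.75), Ccr2 (0.623 ± 0.16) and Ccr9 (0.147 ± 0.012; SD, n = 3). The library values of neighbours in this order were apart except for Cxcr4 and Cxcr5, which overlapped. In itaconate cells the order was Cxcr3 (18.01 ± 0.72 TPM), Ccr4 (13.1 ± 2.3), Cxcr5 (10.96 ± 0.52), Cxcr4 (2.73 ± 0.58), Cxcr6 (1.83 ± 0.35), Ccr2 (0.770 ± 0.36) and Ccr9 (0.147 ± 0.076). Here Ccr4 and Cxcr5 overlapped, and so did Cxcr4 and Cxcr6. The ratio of Cxcr5 to Cxcr4 TPM was 0.800, 0.996 and 1.16 without and 5.00, 3.57 and 3.81 with itaconate. The levels were nearly equal in control cells, and Cxcr5 was in several-fold excess in each treated library.

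Cxcr3 (ENSMUSG00000050232; chromosome X, 101731535 to 101734269) was at 25.6, 19.5 and 21.3 CPM in the control libraries and 22.1, 22.0 and 23.3 CPM in the treated libraries. The treated libraries lay inside the control range. The log2 fold change was 0.02 ± 0.10 with a 95% interval from -0.19 to 0.23, and the adjusted p was 0.924. The gene has 1 annotated transcript and between 397 and 689 expected counts per library, so a change of 2-fold lies far outside this interval. Tbx21, which encodes T-bet, the factor known to switch on Cxcr3, averaged 112 ± 7.5 CPM without and 97.9 ± 7.3 CPM with itaconate (-0.20 ± 0.064, adjusted p 0.0616). In 4 of 14 other settings Tbx21 did pass, including the fits that left out control replicate 1 (adjusted p 0.0426) or itaconate replicate 1 (0.0227).

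Ccr4 (ENSMUSG00000047898; chromosome 9, 114490316 to 114504916) was the other gene of high level, at 31.1, 26.0 and 26.5 CPM in the control libraries and 32.6, 24.5 and 25.7 CPM in the treated libraries. Replicate 1 was the highest library of both groups. The log2 fold change was -0.01 ± 0.11 (95% interval -0.26 to 0.23, adjusted p 0.955). Gata3, a factor linked to CCR4 in type 2 T cells, was at 7.72 ± 0.53 and 9.05 ± 0.66 CPM and did not pass (0.24 ± 0.12, adjusted p 0.24).

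Cxcr6 (ENSMUSG00000048521; chromosome 9, 123806475 to 123811760) was at 3.34, 1.55 and 1.94 CPM in the control libraries and 2.23, 2.28 and 3.13 CPM in the treated libraries. The groups overlapped, and the highest library of all was a control. The log2 fold change of 0.16 ± 0.29 had a 95% interval from -0.47 to 0.79, which reaches from a moderate fall to a rise of less than 2-fold (adjusted p 0.785). Cxcr6 lies inside the span of Fyco1 on the other strand but shares no exonic base with it.

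Ccr2 (ENSMUSG00000049103; chromosome 9, 124101950 to 124113557) was at 1.30, 1.26 and 2.06 CPM in the control libraries and 1.29, 1.33 and 3.26 CPM in the treated libraries. Itaconate replicate 3 alone stood above the control range. The log2 fold change was 0.35 ± 0.38 (95% interval -0.46 to 1.16, adjusted p 0.614) and turned to -0.25 without that library. Monocytes carry CCR2, and the summed TPM of 8 monocyte and macrophage markers was 2.48, 1.78 and 2.78 without and 3.56, 3.32 and 4.17 with itaconate. Of the 8, 2 reached 1 TPM in some library, and neither of the 2 tested markers passed. Lyz2 was at 0.22, 0.51 and 0.75 TPM in the control libraries and 1.93, 0.12 and 2.22 TPM in the treated libraries. Cd68 was at 2.13, 1.11 and 1.81 TPM in the control libraries and 1.48, 2.89 and 1.44 TPM in the treated libraries. The 6 untested markers were near 0, with Csf1r at no more than 0.07 TPM in any library. Adgre1 was at no more than 0.06 TPM outside itaconate replicate 3, where it was at 0.29. Summed neutrophil markers were also highest in that library, at 19.4 TPM against at most 6.96 TPM elsewhere. The part of these cells in the Ccr2 values was not tested. Of the 50-base stretches in the Ccr2 transcripts, 1.91% occur in transcripts of other genes, and RSEM divides reads that fit several genes by estimate.

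Ccr9 (ENSMUSG00000029530; chromosome 9, 123678439 to 123784330) received 8, 6 and 11.77 expected counts without and 10, 3 and 7 with itaconate, under the filter on low counts. Summed over each group, 26 rounded counts in control gave 0.329 CPM (exact Poisson 95% interval 0.215 to 0.482), and 20 in itaconate gave 0.325 CPM (0.199 to 0.502). The intervals cover counting error only. The intervals of the groups overlap widely, and no difference was seen at these low counts. How large a difference could have been seen was not assessed. Ccr9 shares 20.1% of its 50-base stretches with transcripts of other genes, mainly with AC165425.1 and Gm17200, which overlap it. Of the 7 genes, 5 lie on chromosome 9, and Ccr9, Cxcr6 and Ccr2 fall within 435.1 kb.

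**Figure D3:**
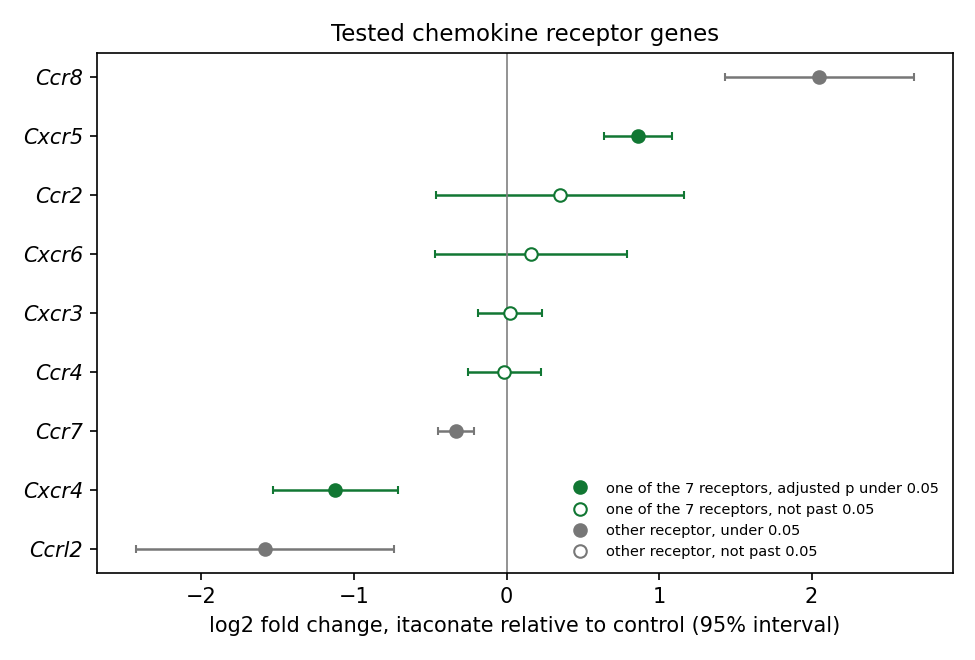
Log2 fold change of itaconate relative to control with its 95% interval for tested chemokine receptor genes, in green for 6 of the 7 genes described and in grey for Ccr7, Ccr8 and Ccrl2, filled where the edgeR adjusted p was under 0.05. The intervals of Ccr8 and Cxcr5 lie above 0 and those of Ccr7, Cxcr4 and Ccrl2 below 0.

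Of 12 other chemokine receptor genes, 3 were tested, of which 1 rose, 1 fell and 1 did not pass, where 12.0% of all tested genes passed in either direction. Ccr8, a receptor of skin-homing and regulatory T cells, rose from 0.742, 1.21 and 0.857 CPM in the control libraries to 2.82, 4.77 and 3.95 CPM in the treated libraries (log2 fold change 2.05 ± 0.29, edgeR adjusted p 0.000491), with no overlap. Ccr7, which brings naive and central memory cells into lymph nodes, fell from 286, 291 and 262 CPM to 208, 223 and 234 CPM, again with no overlap (-0.33 ± 0.055, adjusted p 0.00143). The other 9, among them Ccr1, Ccr6 and Cx3cr1, had too few counts. Set against the summed TPM of all 19 conventional receptor genes, 256 ± 17 in control and 214 ± 9.2 in itaconate libraries, Ccr7 took 78.5% ± 2.8 in control and 71.2% ± 0.94 in itaconate, Cxcr4 2.46% ± 0.33 and 1.27% ± 0.27, and Cxcr5 2.44% ± 0.70 and 5.12% ± 0.29 (SD, n = 3). Shares of 1 sum depend on each other, and the fall in Ccr7 alone raises the rest.

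Of 5 atypical receptor genes, whose products bind chemokines without G protein signalling, Ccrl2 was tested. Ccrl2 fell from 2.04, 2.17 and 2.35 CPM in the control libraries to 0.495, 0.333 and 1.29 CPM in the treated libraries (log2 fold change -1.58 ± 0.39, edgeR adjusted p 0.0181). This call was lost without control replicate 2 or 3 or itaconate replicate 1 or 2, with adjusted p-values from 0.0514 to 0.0699. It was also lost with the effective length as an offset (0.0868) and in limma on log2(TPM + 1) (0.051) and log2(TPM + 0.1) (0.0897).

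Foxp3, the factor of regulatory T cells, was in the list of CD4 T cell markers and rose beside Ccr8 and Cxcr5. It was at 2.60, 1.55 and 1.46 CPM in the control libraries and at 15.04, 10.99 and 11.2 CPM in the treated libraries (log2 fold change 2.72 ± 0.22, edgeR adjusted p 1.10e-05). Of the 5 tested markers in that list, 4 reached 1 TPM in some library and Foxp3 alone passed, and the summed level was 4.91 to 5.90 TPM in control and 8.44 to 10.04 TPM in itaconate libraries. Cd4 was at 1.53 ± 0.44 and 1.73 ± 0.97 TPM, against 249 ± 15 and 315 ± 13 TPM of Cd8a, and the part of CD4 cells in the rise of Cxcr5 and Ccr8 was not tested. The 8 markers of CD8 T cells summed to 2150 to 2279 TPM in control and 2167 to 2305 TPM in itaconate libraries, and 1 of them, Cd8a, rose (0.38 ± 0.049, edgeR adjusted p 0.000297). Summed markers of natural killer cells stayed at or below 4.93 TPM and those of gamma-delta T cells at or below 1.02 TPM, and those of dendritic cells, 70.1 to 107 TPM, were nearly all Batf3, which T cells express too.

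Chemokines that bind the 7 receptors were little expressed by these cells. Of 13 ligand genes, 4 had enough counts, and 1 of them changed: Cxcl10, a ligand of CXCR3, fell from 3.04, 4.69 and 3.71 CPM in the control libraries to 1.24, 1.17 and 2.14 CPM in the treated libraries (-1.30 ± 0.27, edgeR adjusted p 0.00709). This call was lost with the effective length as an offset (0.0513) and in limma on log2(TPM + 1) (0.0509). Ccl22, a CCR4 ligand, was at 2.0 ± 0.40 and 2.76 ± 2.6 CPM, and Ccl25, the CCR9 ligand, at 2.54 ± 0.23 and 2.23 ± 0.30 CPM. Cxcl12, the ligand of CXCR4, was listed at 0 in all 6 libraries, and Cxcl13, the ligand of CXCR5, at no more than 0.04 TPM in any library.

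Downstream of the receptors, 18 signalling genes were tested: 8 rose, 10 did not pass and 0 fell, beside 6.68% higher and 5.36% lower among all tested genes, and their median log2 fold change was 0.13. Gnai2, the inhibitory G protein alpha subunit that couples chemokine receptors in lymphocytes, rose from 355, 355 and 342 CPM in the control libraries to 434, 437 and 419 CPM in the treated libraries (0.29 ± 0.044, edgeR adjusted p 0.000751). Rac2, the GTPase of lymphocyte migration, rose from 459 ± 20 to 551 ± 13 CPM (0.27 ± 0.047), and Plcb2, a phospholipase C, from 17.7 ± 0.63 to 23.6 ± 1.1 CPM (0.42 ± 0.083). Gnai3, the other abundant alpha subunit, was at 170 ± 4.2 and 160 ± 12 CPM (adjusted p 0.407). The calls of Gnai2, Rac2 and Plcb2 held without any 1 library, but all 3 were lost in limma on log2(TPM + 1), at adjusted p-values of 0.08, 0.225 and 0.156. Rac2 (0.0579) and Plcb2 (0.0664) were also lost with the length offset.

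**Figure D4:**
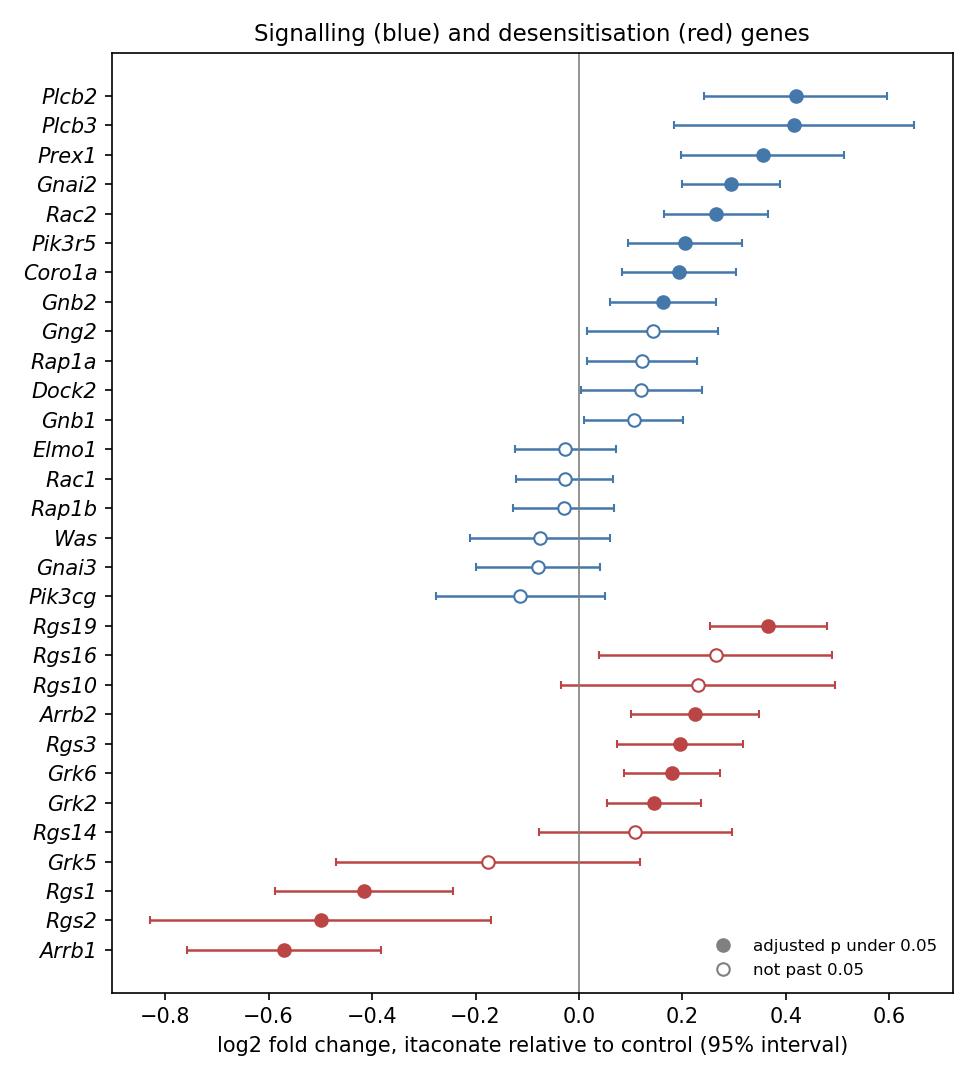
Log2 fold change of itaconate relative to control with its 95% interval for 18 genes of chemokine receptor signalling (blue) and 12 genes of receptor desensitisation (red), filled where the edgeR adjusted p was under 0.05. Filled blue points are all to the right of 0, and filled red points lie on both sides, from Rgs19 at 0.37 to Arrb1 at -0.57.

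Genes that end receptor signals moved both ways. Of 12 tested genes for receptor kinases, arrestins and RGS proteins, which shorten G protein signals, 5 rose, 3 fell and 4 did not pass (median 0.16), against the same 6.68% and 5.36% over all genes. Rgs19 rose from 60.1, 58.4 and 58.3 CPM in the control libraries to 75.5, 76.5 and 75.9 CPM in the treated libraries (0.37 ± 0.053, edgeR adjusted p 0.000601). Arrb1, the arrestin beta-arrestin 1, fell from 41.3, 42.8 and 36.6 CPM to 24.3, 30.3 and 26.6 CPM (-0.57 ± 0.088, adjusted p 0.000924), whereas Arrb2, beta-arrestin 2, rose from 87.3 ± 5.7 to 102 ± 2.9 CPM (0.22 ± 0.058, adjusted p 0.0212). The 2 arrestin genes thus changed in opposite directions. Rgs1, which dampens chemokine responses of activated lymphocytes, fell from 90.3 ± 8.3 to 67.7 ± 6.1 CPM (-0.42 ± 0.079), and Rgs2 from 6.62 ± 0.80 to 4.66 ± 0.40 CPM (-0.50 ± 0.15, adjusted p 0.049). Grk6, a receptor kinase, rose from 263 ± 6.1 to 297 ± 5.5 CPM (0.18 ± 0.044, adjusted p 0.0154). Rgs2 lost its call without any 1 library (adjusted p 0.058 to 0.186), Arrb2 without control replicate 1 (0.0724) or itaconate replicate 2 (0.0895) or 3 (0.0621), and Grk6 without control replicate 2 (0.0605) or itaconate replicate 2 (0.0509) or 3 (0.0788). In limma on log2(TPM + 1), which divides by length, Arrb1 kept its call (0.017), while Rgs19 (0.059), Rgs1 (0.0699), Rgs2, Arrb2 and Grk6 did not.

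Among 16 tested transcription factor genes known to control these receptors, 2 rose, 2 fell and 12 did not pass (median 0.10). The counts are too small to tell the list from all tested genes, of which 6.68% were higher and 5.36% lower, and no test of the list was run. Prdm1, the regulator BLIMP-1 that represses Cxcr5, fell from 13.0, 11.7 and 15.8 CPM in the control libraries to 8.61, 6.55 and 9.14 CPM in the treated libraries (-0.74 ± 0.15, edgeR adjusted p 0.00511), and kept its call without any 1 library but not in limma on log2(TPM + 1) (0.0616). Id2, an inhibitor of E proteins, fell from 25.8 ± 2.7 to 20.3 ± 1.6 CPM (-0.35 ± 0.095, adjusted p 0.0268), a call lost without control replicate 3 (0.0876) or itaconate replicate 1 (0.0893) or 2 (0.0735). Eomes (0.26 ± 0.076, adjusted p 0.0477), a T-box factor, and Rara (0.27 ± 0.081, adjusted p 0.0468), a retinoic acid receptor, rose at the edge of the threshold. The call of Eomes was lost on leaving out any library but itaconate replicate 2, and that of Rara without control replicate 2 or 3 or itaconate replicate 1 or 3, with adjusted p-values from 0.0668 to 0.204 between them. Id2, Eomes and Rara also lost their calls with the length offset (adjusted p 0.101, 0.13 and 0.152). The same held in limma on log2(TPM + 1) (0.0524, 0.33 and 0.37). Over all 14 alternatives, Id2 lost its call in 6, and Eomes and Rara in 9 each. Hif1a, the oxygen-regulated subunit of HIF-1, was at 328 ± 8.2 and 315 ± 13 CPM (-0.06 ± 0.046, adjusted p 0.468). Of 6 other tested receptors of lymphocyte traffic, such as S1pr1 and Gpr183, none passed in edgeR, with 2 at an unadjusted p under 0.05, Gpr18 (0.0352) and Gpr183 (0.00673).

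The genes whose values over the 6 libraries were most like those of the 2 changed receptors were found by the root-mean-square difference of log2 CPM, each gene centred on its control mean. For Cxcr4 they were Slc2a3, the glucose transporter GLUT3 (difference 0.104), Wnt10a, a secreted Wnt ligand (0.148), and Vldlr, a lipoprotein receptor (0.17). Like Cxcr4, Slc2a3 and Wnt10a were lowest in itaconate replicate 1, at 59.4 and 1.83 CPM, whereas Vldlr was about as low there (1.04 CPM) as in itaconate replicate 3 (1.03 CPM). For Cxcr5 they were Hic1, a transcriptional repressor (0.0484), Sla2, an adaptor that restrains T cell receptor signals (0.0752), and Spin2c, a member of the spindlin family (0.0807). Sla2 was at 24.9, 25.9 and 25.3 CPM in the control libraries and at 45.2, 42.8 and 43.7 CPM in the treated libraries. Under 14 alternative settings, Vldlr lost its call in 7 and Wnt10a in 3, while Slc2a3, Hic1, Sla2 and Spin2c kept theirs in all. The genes named here are the closest of 12350 genes by construction, over 6 libraries that share their treatment.

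**Figure D5:**
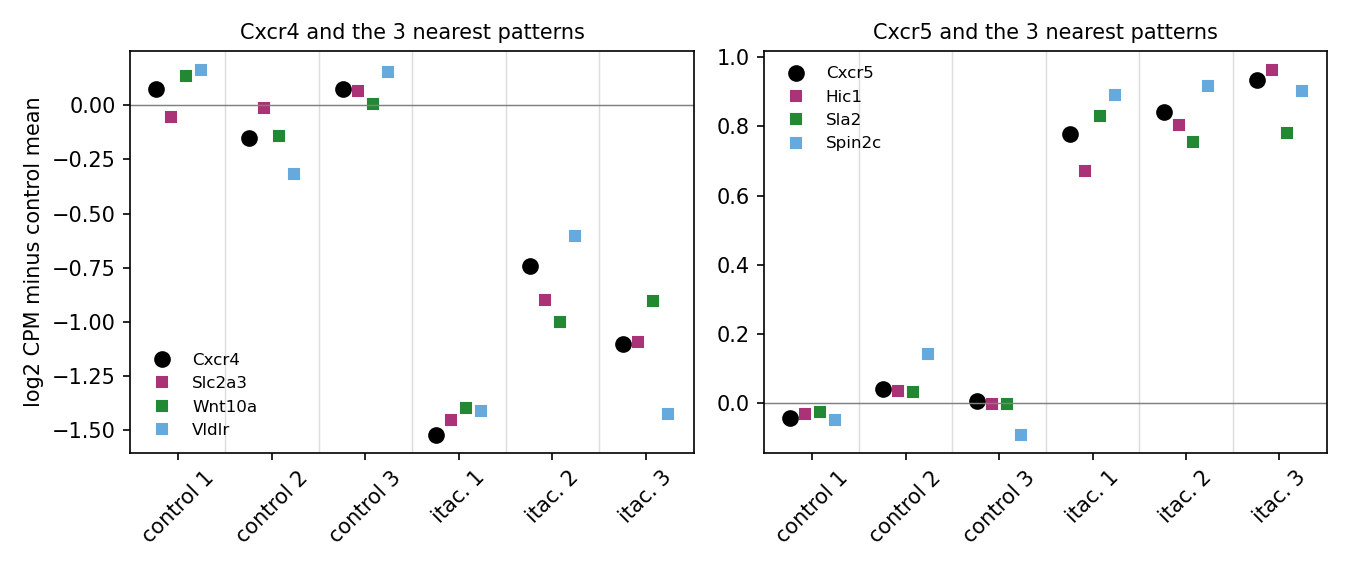
Log2 CPM minus the control mean in each of the 6 libraries for Cxcr4 and Cxcr5 (black) and the 3 genes nearest to each (coloured squares). Cxcr4 reached -1.52 in itaconate replicate 1 and -0.74 in itaconate replicate 2, while Cxcr5 lay between 0.78 and 0.94 in the treated libraries.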

How the data were processed

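Gene tables of 6 RNA-seq libraries, 1 per library, were used. The deposited expected counts estimate how many reads belong to a gene; their column names are those of RSEM, per the file headers, and they are not normalised. TPM values were made by the authors, per the file headers, by dividing by effective length and scaling to 1 total. Transcript lengths are the authors' abundance-weighted means. Bowtie 0.12.2 and the builds mm8 and mm10 appear in the submitters' processing notes without roles. For the RSEM version, annotation and strand setting: not given in the sources used here. Positions come from GENCODE M21 (GRCm38), which holds 99.83% of the gene identifiers.

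Expected counts, of which 5.99% to 6.93% per library were not whole within 0.001, were rounded. All 6 libraries were fitted with edgeR 4.0.16 (R 4.3.3; TMM, quasi-likelihood test, two-sided, robust) after its filter (minimum count 10, minimum total 15). Adjusted p-values are Benjamini-Hochberg values over 12350 genes. Intervals use the fit's degrees of freedom. Alternatives used DESeq2 1.42.0, limma 3.58.1 on log2(TPM + 1) and log2(TPM + 0.1), other filters, a length offset, a replicate block and leaving out each library. The scripts were tested on simulated data. No libraries of a group agreed within sampling noise (chi-square per gene 4.84 to 16.9).

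The receptors and gene lists were chosen with earlier results of these data known. By rule, the text names the 7 receptors, all other tested receptors but 1 that is not reported here, in each further list the called genes of smallest adjusted p, at most 3 per direction, 6 genes by name (Tbx21, Gata3, Bcl6, Hif1a, Gnai2, Ccr7) and the 3 nearest patterns of each changed receptor. Gnai3, Ccl22, Ccl25, Cxcl12, Cxcl13, Gpr18, Gpr183, overlapping genes and markers with no call were added after their values were seen.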

Additional observations from a re-analysis of the deposited data

How the results depend on the processing

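The count of changed receptors was 2 of the 7 under all 14 alternatives, and Cxcr4 and Cxcr5 kept their direction and call in each. Cxcr4 ranged from -1.32 to -0.94 and Cxcr5 from 0.75 to 0.90 on the log2 scale, with adjusted p-values of at most 0.0199 and 0.03. Receptors that did not pass, and Bcl6, changed sign under some settings, never past the threshold. Cxcr3 was at -0.0329 in limma on log2(TPM + 1) and at -0.034 on log2(TPM + 0.1). Without 1 library each, Cxcr3 ran from -0.066 to 0.14, Ccr4 from -0.15 to 0.0704, Cxcr6 from -0.0497 to 0.54, Ccr2 from -0.25 to 0.62 and Bcl6 from -0.0889 to 0.39.

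The count of changed genes among all tested was 1487, and was 562 with an effective length offset, 340 in limma on log2(TPM + 1), 356 on log2(TPM + 0.1) and 2419 with the replicate block. The higher share was 55.5%, against 39.1% and 39.6% in limma. Without 1 library it ran from 726 to 1400, with 726 without control replicate 2, 896 without itaconate replicate 2 and 835 without itaconate replicate 3; the cause was not tested. Deviations of same-numbered libraries correlated at 0.113, 0.0305 and 0.0034, and those of different numbers at -0.093 to 0.0664. Control replicate 3 correlated best with itaconate replicate 2, and the numbers were not taken to pair the samples. These values do not settle whether they do. Of 35 genes with alternatives, 16 lost the call in at least 1 and 1, Tbx21, gained it. The 35 include genes without a call in the main fit, which had none to lose: Cxcr3, Cxcr6, Ccr2, Ccr4, Bcl6, Gata3, Hif1a and Tbx21. Ccr9, with at most 11.77 expected counts in a library, was under the low-count filter of the main fit. Without that filter its log2 fold change was -0.01 ± 0.71 (SE, edgeR adjusted p 0.995).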
